A study of Sus scrofa with 8 samples.

Results

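The subject is the open chromatin around 7 genes of the unfolded protein response, namely ATF6, ERN1, EIF2AK3, XBP1, ATF4, DDIT3 and HSPA5, in porcine muscle satellite cells. Open sites were measured by ATAC-seq, in which a transposase cuts accessible DNA, and were deposited as 1 list of peaks for each of 8 libraries. Overlapping peaks of all libraries were joined into 178498 merged regions on chromosomes 1 to 18 and X. A region belonged to a gene when the nearest end of any protein-coding gene lay within 50 kb and was an end of that gene. By this rule 114950 regions were linked to a gene, and 61 of them to the 7 genes. ATF6 had 19 regions, ERN1 18, EIF2AK3 10, XBP1 6, ATF4 3, DDIT3 3 and HSPA5 2. The set was chosen by its peak calls in CBP libraries at 0 h, where ATF6 lacked regions that WT libraries had, so values of CBP at 0 h against WT at 0 h are given below as a description and were not tested.

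The 4 groups, with 2 libraries each, were CBP at 60 h, WT at 60 h, CBP at 0 h and WT at 0 h. The labels give 60 h as differentiation and 0 h as proliferation, and all 8 libraries as muscle satellite cells. Every library carries the same treatment note, which names SGC-CBP30, an inhibitor of the bromodomain of the histone acetyltransferases CBP and p300. The note gives 5 uM/ml for 48 h of proliferation and 60 h of differentiation. It does not say which libraries received the compound, and CBP and WT are used here only as label names. Age and breed of the animals are not given, and the cell line is named C3H although the organism is pig. The design text speaks of 3 repeats, and 2 libraries a group were analysed here. Nothing says that the libraries of a group came from separate cultures or animals, so p-values measure only the spread between libraries, which may be technical.

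The unfolded protein response is the set of signals by which a cell answers misfolded protein in the endoplasmic reticulum. In mammals it has 3 sensors in the membrane of that organelle. ERN1, also called IRE1, is a kinase and endonuclease that splices XBP1 messenger RNA, which then encodes an active transcription factor. EIF2AK3, also called PERK, is a kinase that slows translation and thereby favours translation of the transcription factor ATF4, which activates DDIT3, also called CHOP, a factor linked to cell death. ATF6 moves to the Golgi apparatus, where proteases free its cytoplasmic part, which activates chaperone genes. HSPA5, also called BiP, is the main chaperone of the endoplasmic reticulum and holds the sensors inactive. In muscle, parts of this response are known to be active during myoblast differentiation.

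The 0 h lists were longer and the 0 h libraries deeper. Depth relative to the shallowest library, read from the background of each peak list, was 1.21 and 1.08 in CBP 60 h, 1.11 and 1 in WT 60 h, 1.98 and 1.43 in CBP 0 h, and 1.69 and 2.09 in WT 0 h. A deeper library can call weaker sites, and depth and time cannot be told apart in these lists. Pileups are printed below as reads, not corrected for depth. For regions called in all 8 libraries, overlap of CBP and WT was judged after each library was scaled to the same median height, and gene ends where the other scaling differed are given here. With scaling to background instead, CBP 60 h was below WT 60 h without overlap at the gene ends of XBP1, HSPA5 and ERN1 and the lower end of ATF4, where the median-scaled values overlapped, and it overlapped WT 60 h at the end of EIF2AK3, where the median-scaled CBP values were above. As a check of the cell type, 9 or 10 of 10 satellite cell and myoblast genes had a peak within 1 kb of a gene end in every library. The same count was 3 to 5 of 6 for endothelial genes, 2 to 4 of 6 for immune genes, 2 or 3 of 4 for fibroblast genes, 3 of 5 for adipocyte genes and 0 of 3 for Schwann cell genes. Of the markers of these other cell types, CDH5, CSF1R, PDGFRA, ADIPOQ and FABP4 had no such peak in any library, and neither had the 3 Schwann cell genes. PECAM1, KDR, CLDN5, CD68, CD3E, COL1A1, THY1, PPARG, CEBPA and PLIN1 had one in all 8 libraries, and the part of other cells in the results was not tested. A peak at a gene end is accessibility and not expression.

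Each of the 7 genes kept at least 1 region that was called in every library, and most changes between groups were in small regions away from gene ends. Of the 61 regions, 24 were called in all 8 libraries (39.3%) and 8 in 1 library. Of all 178498 merged regions, 50575 were called in all 8 libraries (28.3%) and 40277 in 1 library. The number called was 34 and 37 in CBP 60 h, 38 and 36 in WT 60 h, 46 and 42 in CBP 0 h, and 48 and 52 in WT 0 h. The 0 h libraries therefore held more of the regions than any 60 h library, and within 0 h both WT libraries held more than both CBP libraries. That last contrast chose the genes, and nothing is read from it. Over all merged regions the called share was 47.0% and 46.0% in CBP 60 h, 45.1% and 43.1% in WT 60 h, 72.9% and 63.5% in CBP 0 h, and 67.4% and 71.3% in WT 0 h.

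**Figure D1:**
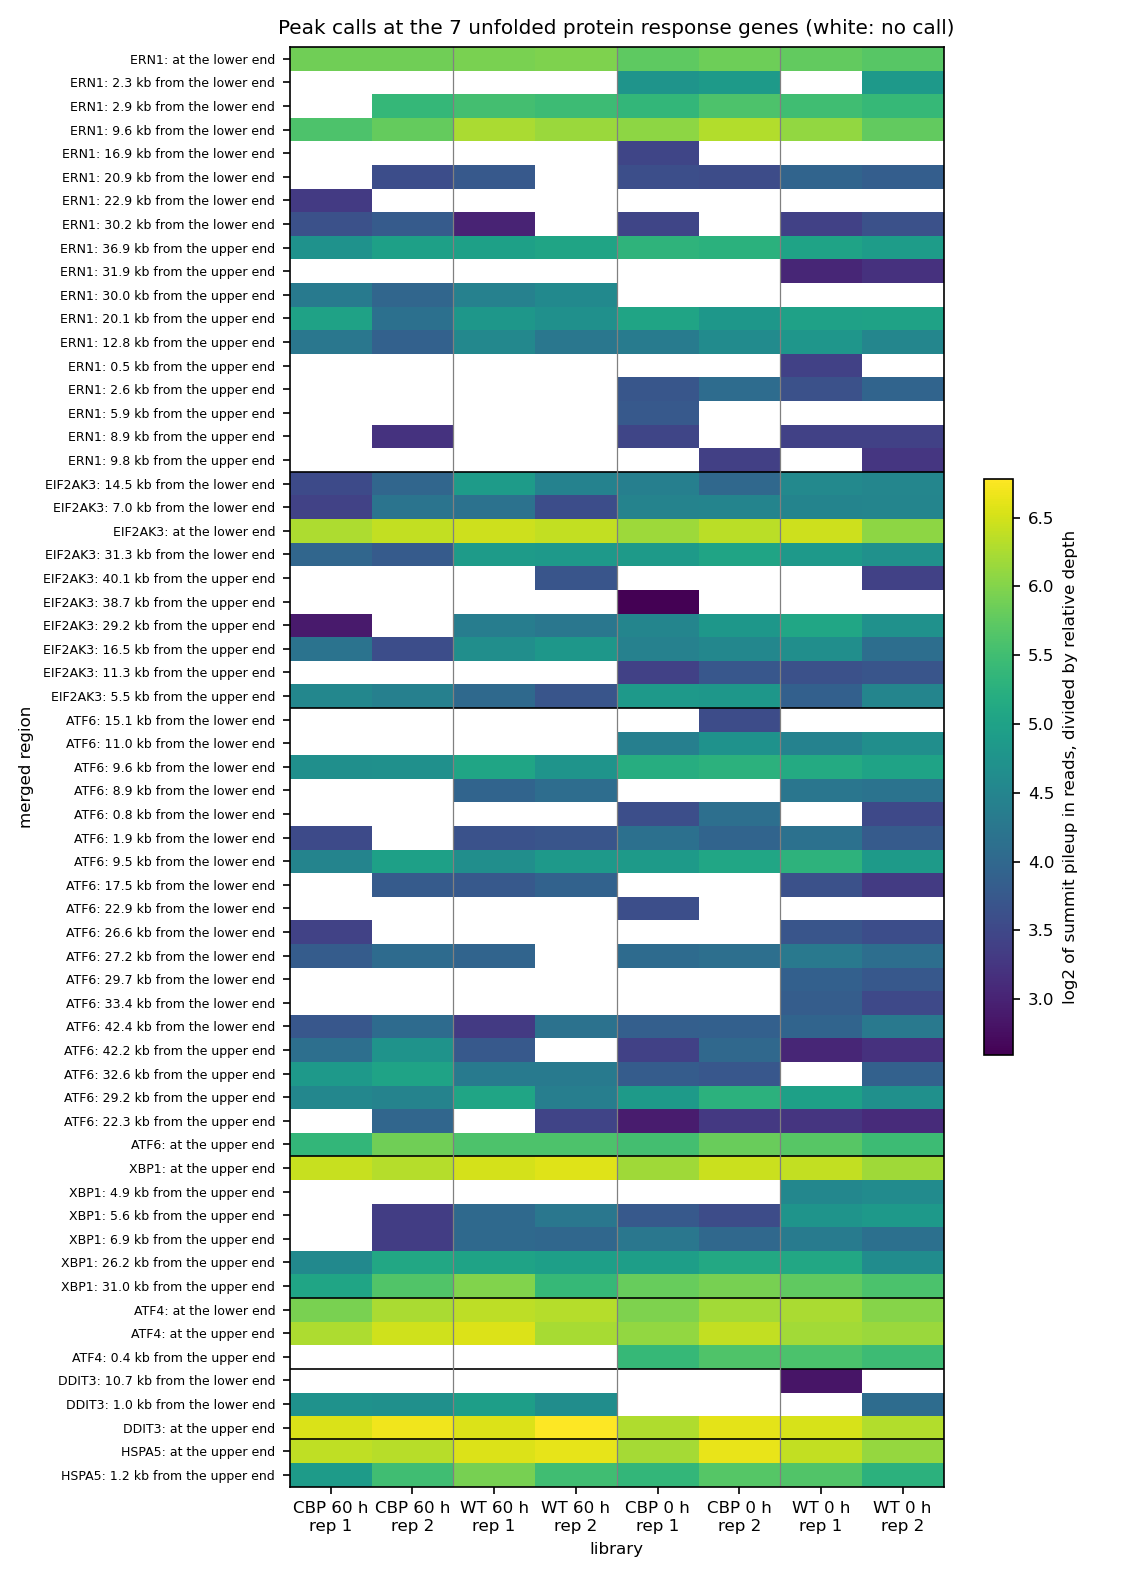
The 61 regions of the 7 genes (rows, by gene and position, with distance from the nearest gene end) in the 8 libraries (columns). Colour is the log2 of the read pileup at the peak summit divided by relative depth, and white means no call; the 8 rows at a gene end are coloured in every column.

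A region was counted as lost when neither library of the group named first had a call and both libraries of the group named second did, and as gained in the reverse case. With 2 libraries against 2 the smallest exact two-sided p is 0.333, so these counts have no test of their own and stand beside the share of all merged regions with the same pattern. In CBP 0 h against WT 0 h, the contrast that chose the genes, 7 of 61 regions were lost and 0 gained, where 3.47% and 2.51% of all regions were. These were 5 regions of ATF6, 1 of XBP1 and 1 of ERN1, and nothing is read from their number. In CBP 60 h against WT 60 h, 1 region was lost and 0 gained, against 3.19% and 4.01% of all regions. This count rests on 60 h libraries, which the choice did not use, and it moved with the processing. It became 4 lost and 1 gained at equal peak number, 4 lost and 2 gained with 50% of a region covered, and 5 lost and 2 gained without CBP 60 h replicate 2. With a library left out, fewer libraries had to lack a call, so that count cannot fall. The shares of all regions at these settings are not given here. In WT 60 h against WT 0 h, 10 regions were lost and 1 gained, against 15.1% and 0.654% of all regions. In CBP 60 h against CBP 0 h, 6 were lost and 2 gained, against 14.9% and 1.82%. The shares of the 61 regions were 16.4% lost in WT and 9.84% lost in CBP, near or below those of all regions. When every library was cut to its 82696 strongest peaks, the WT change over time became 2 lost and 3 gained and the CBP change 2 lost and 4 gained. The excess of lost over gained regions with time was therefore not present at equal peak number among the regions of the 7 genes. Giving every library the same number of peaks itself brings lost and gained regions toward balance, so nothing is read from this. The shares of all regions at that setting are not given here. At equal peak number 3 regions were lost in CBP 0 h against WT 0 h, and ATF6 kept 1 of its 5.

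**Figure D2:**
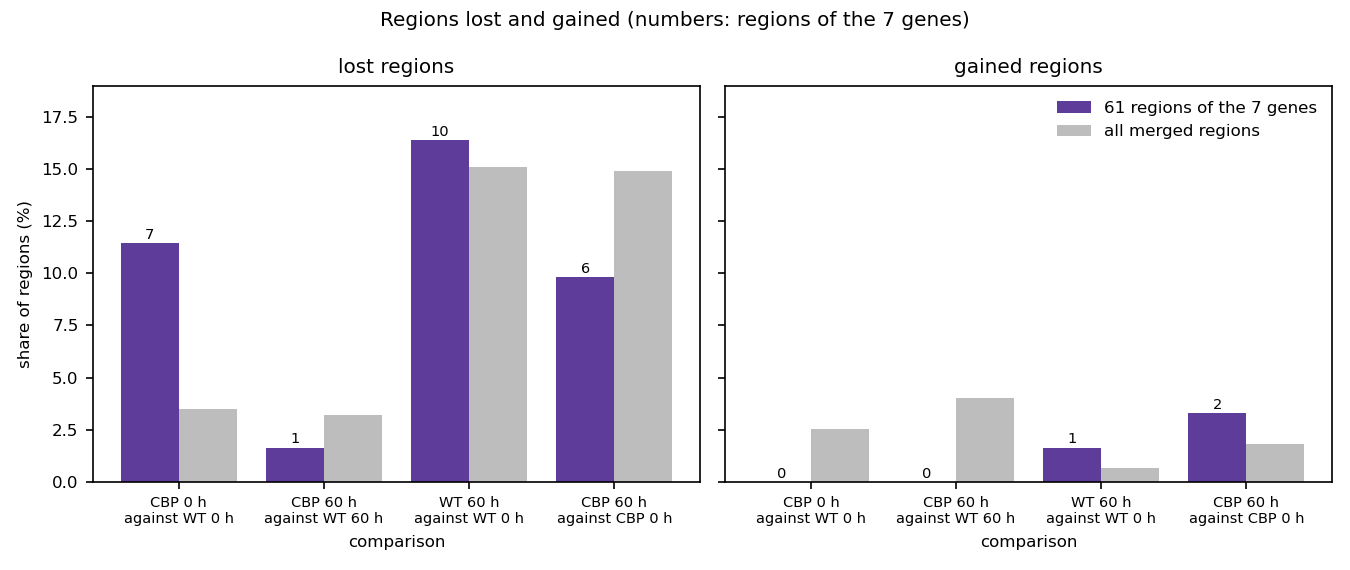
Share of regions lost (left) and gained (right) in each of the 4 comparisons, for the 61 regions of the 7 genes (purple, with the number of regions above) and for all merged regions (grey). The purple bar is above the grey bar for lost regions in CBP 0 h against WT 0 h, where 7 regions were lost and the genes had been chosen, and is below it for lost regions in CBP 60 h against WT 60 h and in CBP 60 h against CBP 0 h.

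Over all 8 libraries, 1 of the 61 regions was called in all 4 libraries at 60 h and none at 0 h, where 0.131% of all regions were, and 4 were called in all 4 at 0 h and none at 60 h, where 5.68% were. These 4 lay 1 each at ATF6, ATF4, ERN1 and EIF2AK3, and the region called at 60 h was in ERN1. In a two-sided Fisher's exact test of 60 h against 0 h on each merged region, adjusted by Benjamini-Hochberg over all of them, 0% of regions passed. The smallest adjusted p was 0.491, 10378 regions had an unadjusted p below 0.05, and 5 of these were regions of the 7 genes. No region of the 7 genes was called in all 4 CBP libraries and no WT library, a pattern of 0.2% of all regions. The reverse pattern, every WT library and no CBP library, was held by 1 region, at ATF6, and by 0.226% of all regions. Both label patterns include the 0 h libraries by which the genes were chosen, and nothing is read from them.

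Among the sensors, ATF6 (gene 100158076, chr4:88591279-88806156 on Sscrofa11.1, 215 kb long) had 5 of the 7 regions lost in CBP 0 h against WT 0 h, the contrast that chose the genes, and 1 region lost in CBP 60 h against WT 60 h. The annotation used gives no strand or exons, so the ends of a gene are called lower and upper by coordinate. Of its 19 regions, 10 and 10 were called in CBP 60 h, 11 and 10 in WT 60 h, 13 and 13 in CBP 0 h, and 15 and 17 in WT 0 h. The libraries of CBP and WT overlapped at 60 h and did not overlap at 0 h. The 5 regions lost in CBP 0 h all lay toward the lower end, 1 of them outside the gene and 4 inside it.

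The outer region, chr4:88581998-88582341, lay between genes, 8.94 kb below the lower end of ATF6. It had no call in CBP 60 h, summit pileups of 17 and 17 reads in WT 60 h, no call in CBP 0 h, and 32 and 38 reads in WT 0 h. All 4 WT libraries and no CBP library thus held it, and it was the single region of the 61 that was lost in CBP at both times. This outer region lay 289 bp from the broader region chr4:88580467-88581708, which was called in all 8 libraries. Of the other 4, chr4:88608752-88609441, inside the gene, had 15 reads in CBP 60 h replicate 2, 15 and 15 in WT 60 h, no call in CBP 0 h, and 21 and 21 in WT 0 h. A CBP library at 60 h therefore had a call of the same height as both WT libraries of that time. The region chr4:88617925-88618219 had 13 reads in CBP 60 h replicate 1, no call in WT 60 h or CBP 0 h, and 22 and 25 reads in WT 0 h. It lay 239 bp from chr4:88618459-88619626, which was called in 7 of the 8 libraries, both CBP 0 h libraries among them.

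The remaining pair, chr4:88621018-88621420 and chr4:88624717-88625287, had calls in WT 0 h and in no other library, with 25 and 28 reads in the first and 24 and 24 in the second. All 5 were weak sites, with 21 to 38 reads in WT 0 h, while the region at the upper end of ATF6 had 88 and 92. An absent call does not show an absent signal, since the lists give no value below the threshold for a call. Scaled to the CBP 0 h depths, the WT 0 h pileups of the 5 regions were 14.4 to 37.6 reads. A summit of 9 to 22 reads would have been needed to reach the lowest p-value in those lists. In the closest library pair the scaled pileup was above the needed height by 4.11 reads. That height alone need not suffice for a call, since no CBP 0 h peak was shorter than 200 bp. The WT 0 h replicate 1 peaks at chr4:88617925-88618219 and chr4:88621018-88621420 were 200 and 202 bp wide. The part of depth in these missing calls was not tested.

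**Figure D3:**
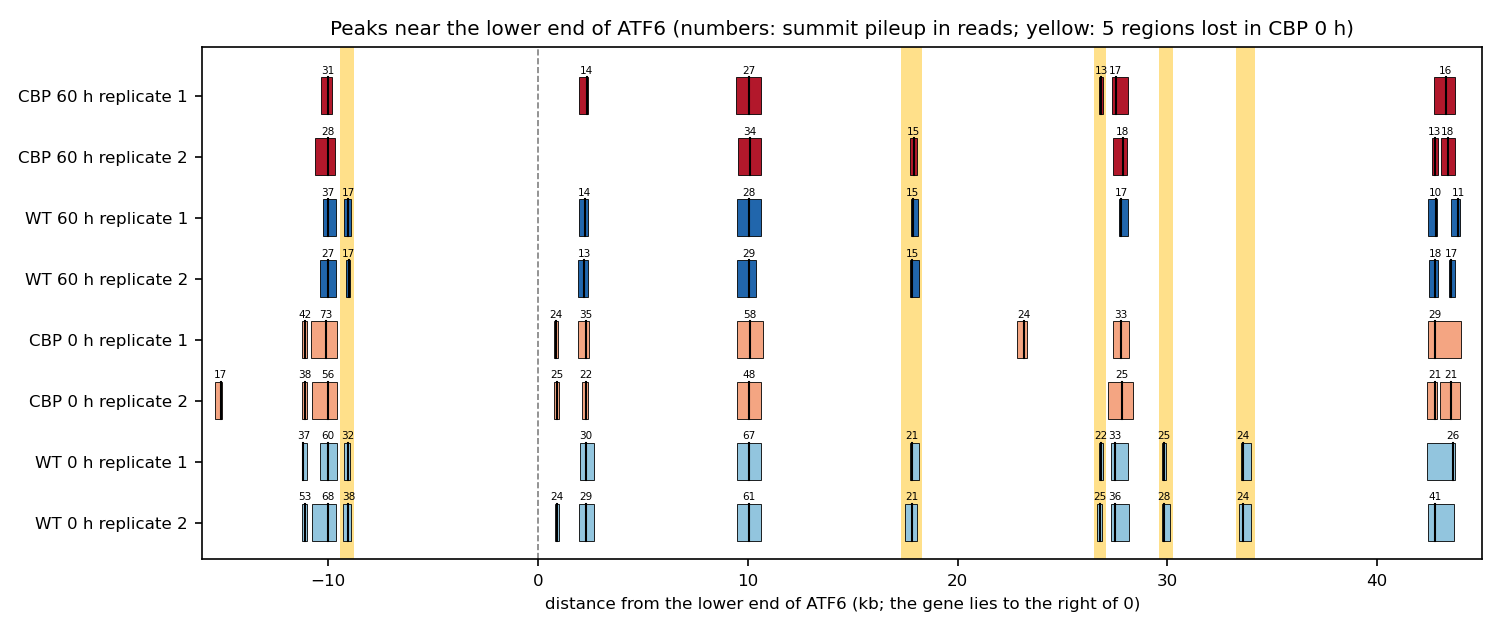
Peaks near the lower end of ATF6 in the 8 libraries (rows), by distance from that end in kb, with the gene to the right of 0. Boxes are peaks, black lines their summits and numbers the summit pileup in reads; the yellow bands mark the 5 regions called in both WT 0 h libraries and neither CBP 0 h library, and only the leftmost is also called in both WT 60 h libraries and no CBP 60 h library.

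A further ATF6 region was lost with time in both labels. The region chr4:88580005-88580255, 11.0 kb below the lower end, had no call at 60 h, 42 and 38 reads in CBP 0 h, and 37 and 53 in WT 0 h. It sat 211 bp from a broader region that was called in all 8 libraries, with 31 and 28 reads in CBP 60 h, 37 and 27 in WT 60 h, 73 and 56 in CBP 0 h, and 60 and 68 in WT 0 h. The narrow region thus lay beside a site that was open in every library. The region nearest the lower end, chr4:88592034-88592284, had no call at 60 h, 24 and 25 reads in CBP 0 h, and 24 in WT 0 h replicate 2. The region at the upper end, chr4:88804552-88806329, which also overlaps the long noncoding RNA gene LOC110260306, had 50 and 63 reads in CBP 60 h, 54 and 49 in WT 60 h, 92 and 81 in CBP 0 h, and 88 and 92 in WT 0 h. CBP and WT overlapped there at both times. Toward that end, chr4:88772802-88773581 had 35 and 35 reads in CBP 60 h, 22 and 20 in WT 60 h, 28 and 19 in CBP 0 h, and 31 in WT 0 h replicate 2. At chr4:88763129-88763944 there were 21 and 29 reads in CBP 60 h, 15 in WT 60 h replicate 1, 21 and 23 in CBP 0 h, and 14 and 19 in WT 0 h. In both regions the CBP pileups at 60 h were above those of WT without overlap, also after division by relative depth, so the sites of ATF6 did not all have less signal in CBP, and neither was in the test of heights because 1 library had no call. ATF6 is longer than the other 6 genes, and 9 more regions inside it lay too far from an end to be linked. None of these 9 was lost or gained in CBP 0 h against WT 0 h. The last linked region lay 42.4 kb from an end of ATF6 and the nearest one left out lay 51.1 kb away, and both were called in all 8 libraries.

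ERN1 (gene 100510978, chr12:14881913-14963290) had a merged region that was called at 60 h in every library and at 0 h in none. The merged region chr12:14931542-14933243, inside the gene and 30.0 kb from its upper end, had 24 and 17 reads in CBP 60 h, 24 and 24 in WT 60 h, and no call in CBP 0 h or WT 0 h. The peaks of CBP and WT stood at different places within this region. The highest summits were at 14933122 and 14933093 in CBP 60 h, and at 14931705 and 14931714 in WT 60 h, more than 1 kb apart. A lower summit of 16 reads in WT 60 h replicate 1 lay between them, within chr12:14932154-14932354. The CBP and WT peaks at 60 h are thus separate sites joined by the width of the WT 60 h replicate 2 peak, and with the summit sites defined below, 0 sites were called in all 4 libraries at 60 h and none at 0 h. In WT 0 h a neighbouring region, chr12:14930995-14931415, had 14 and 19 reads, and it had no call in CBP 0 h or at 60 h.

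The other ERN1 changes were losses with time. The region chr12:14965929-14966750, 2.64 kb above the upper end, had no call at 60 h, 26 and 24 reads in CBP 0 h, and 21 and 32 in WT 0 h. The region chr12:14884234-14884516, inside the gene near its lower end, had no call at 60 h, 54 and 42 reads in CBP 0 h, and 60 in WT 0 h replicate 2. It lay 246 bp from a region called in 7 of the 8 libraries. The region chr12:14972237-14972905, above the gene, had 10 reads in CBP 60 h replicate 2, none in WT 60 h, 22 in CBP 0 h replicate 1, and 18 and 22 in WT 0 h, and was lost in WT. At the lower end itself, chr12:14881428-14882933 had 71 and 63 reads in CBP 60 h, 68 and 63 in WT 60 h, 106 and 83 in CBP 0 h, and 93 and 108 in WT 0 h, so it was open in all groups and CBP and WT overlapped. The region nearest the upper end, chr12:14963838-14964087, was called in WT 0 h replicate 1 only, with 18 reads.

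EIF2AK3 (gene 100513348, chr3:57423894-57506247) lost 1 region with time in both labels and none between CBP and WT. That region, chr3:57494231-57494961, inside the gene, had no call at 60 h, 21 and 19 reads in CBP 0 h, and 21 and 27 in WT 0 h. The region at the lower end, chr3:57423095-57425070, had 93 and 91 reads in CBP 60 h, 98 and 84 in WT 60 h, 142 and 116 in CBP 0 h, and 149 and 141 in WT 0 h. It was open throughout, and CBP and WT overlapped at 0 h. The region chr3:57475646-57477047, inside the gene, had 9 reads in CBP 60 h replicate 1, 23 and 19 in WT 60 h, 45 and 40 in CBP 0 h, and 57 and 55 in WT 0 h. Only 1 CBP library had a call at 60 h, and 1 library of 8 without a call kept this region out of the test of heights. Of the 10 regions of EIF2AK3, 6 were called in every library, and peak height differed between CBP and WT in several of these, as given below.

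Of the transcription factors, XBP1 (gene 100217386, chr14:46011239-46016526) showed a difference between CBP and WT that the merged regions partly hid. Most of it was at 0 h, in the contrast that chose the genes, and nothing is read from that part. The region at its upper end, chr14:46015125-46016902, had 104 and 86 reads in CBP 60 h, 101 and 96 in WT 60 h, 144 and 124 in CBP 0 h, and 143 and 152 in WT 0 h. It was open in all libraries, and CBP and WT overlapped at both times. The region chr14:46021473-46021769, between genes and 4.95 kb above that end, had 39 and 51 reads in WT 0 h and no call in any other library.

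The next region outward, chr14:46022166-46023223, overlaps the long noncoding RNA gene LOC110256860 and was called in all libraries but CBP 60 h replicate 1. Its summit lay at 46023042 in CBP 60 h replicate 2, at 46022503 and 46022527 in WT 60 h, at 46023084 and 46023060 in CBP 0 h, and at 46022506 and 46022509 in WT 0 h. The summit pileups were 11 reads in CBP 60 h replicate 2, 18 and 19 in WT 60 h, 27 and 17 in CBP 0 h, and 46 and 60 in WT 0 h. The 4 WT summits lay close together, and the 3 CBP summits lay farther from XBP1, so the summit positions of CBP and WT did not overlap at either time. At 60 h this rests on 1 CBP library with 11 reads. The following region, chr14:46023400-46024211, had 11 reads in CBP 60 h replicate 2, 18 and 16 in WT 60 h, 38 and 23 in CBP 0 h, and 34 and 37 in WT 0 h, with overlap of CBP and WT at 0 h. The remaining 2 XBP1 regions were called in all 8 libraries. In the ATF6 region chr4:88618459-88619626 the CBP and WT summits also differed at 0 h, but at 60 h they did not follow the labels. Within chr4:88618680-88618926 there were 33 and 36 reads in WT 0 h and 17 in CBP 60 h replicate 1. Within chr4:88618981-88619255 there were 33 and 25 in CBP 0 h, 18 in CBP 60 h replicate 2 and 17 in WT 60 h replicate 1.

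**Figure D4:**
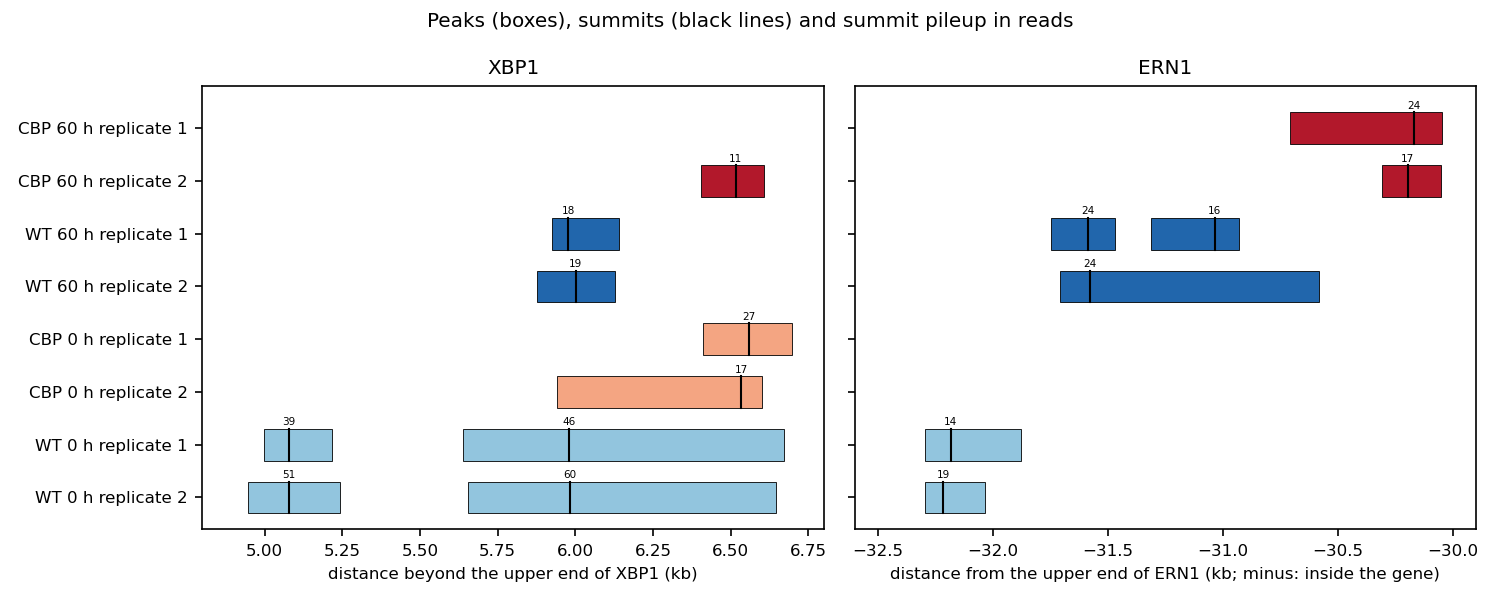
Peaks (boxes), summits (black lines) and summit pileups in reads (numbers) in the 8 libraries (rows), by distance in kb from the upper end of XBP1 (left, above the gene) and of ERN1 (right, inside the gene). At XBP1 the CBP summits lie near 6.5 kb and the WT summits of the same region near 6.0 kb. At ERN1 the highest CBP 60 h and WT 60 h summits are more than 1 kb apart, with no 0 h peak over either. A lower WT 60 h replicate 1 summit lies between them.

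Because of these sites, calls were also compared over summit sites, windows of 100 bp on each side of every summit, merged over libraries. This division was added after the peaks had been seen. It gave 85 sites at the 7 genes of 232419 in all. In CBP 60 h against WT 60 h, 4 of the 85 were lost and 3 gained, against 3.23% and 3.7% of all sites. In CBP 0 h against WT 0 h, 10 were lost and 2 gained, against 3.63% and 2.9%, and nothing is read from that contrast. At 60 h the lost sites lay 1 each at ATF6, ATF4, XBP1 and ERN1, and the gained sites lay 1 at DDIT3 and 2 at ERN1. Called in all 4 WT libraries and no CBP library were 2 of the 85, against 0.202% of all sites. They were the ATF6 site within the outer region described above and the XBP1 site chr14:46022403-46022627. This pattern includes the 0 h libraries by which the genes were chosen, and nothing is read from its number. None of the 85 was called in all 4 CBP libraries and no WT library. No test of these summit positions was made.

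ATF4 (gene 100144302, chr5:8742964-8745752) is a short gene with an open region at each end. The lower region, chr5:8741626-8743132, had 74 and 82 reads in CBP 60 h, 91 and 80 in WT 60 h, 124 and 105 in CBP 0 h, and 129 and 135 in WT 0 h. The upper region, chr5:8744374-8745995, had 93 and 96 reads in CBP 60 h, 105 and 75 in WT 60 h, 136 and 120 in CBP 0 h, and 124 and 148 in WT 0 h. Both regions were open in all groups, and CBP and WT overlapped at 60 h in each. The region chr5:8746192-8746563, 0.44 kb above the gene, had no call at 60 h, 84 and 71 reads in CBP 0 h, and 82 and 92 in WT 0 h. It lay 196 bp from the upper region. Its pileup scaled to the 60 h depths was 44.1 to 60.0 reads. A summit of 42 to 50 reads would have been needed for a call, and that height alone need not suffice. In the closest library pair the scaled pileup was above the needed height by 1.09 reads.

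DDIT3 (gene 100240743, chr5:22785441-22789867) had a region that was called more often at 60 h. The region chr5:22783679-22784476, 0.965 kb below the lower end, had 32 and 28 reads in CBP 60 h, 34 and 25 in WT 60 h, no call in CBP 0 h, and 35 reads in WT 0 h replicate 2. It was gained with time in CBP by the rule for calls, and in WT the single 0 h call kept it from being counted. The region lies inside the neighbouring gene MARS, which encodes methionyl-tRNA synthetase, so its link to DDIT3 rests on distance alone. The upper region, chr5:22788781-22790427, overlaps both DDIT3 and the gene MBD6 and had 113 and 111 reads in CBP 60 h, 105 and 110 in WT 60 h, 154 and 139 in CBP 0 h, and 156 and 164 in WT 0 h. It was open in every library. After median scaling it had 156 and 159 in CBP 60 h and 133 and 162 in WT 60 h, so CBP and WT overlapped.

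HSPA5 (gene 407060, chr1:265930044-265934959) had 2 regions, and both were called in all 8 libraries. The region at its upper end, chr1:265934210-265935876, had 101 and 87 reads in CBP 60 h, 105 and 99 in WT 60 h, 147 and 142 in CBP 0 h, and 143 and 145 in WT 0 h. The region 1.20 kb above the gene had 36 and 49 reads in CBP 60 h, 67 and 45 in WT 60 h, 82 and 73 in CBP 0 h, and 85 and 81 in WT 0 h. CBP and WT overlapped at both times in both regions after median scaling. With scaling to background the region above the gene was lower in CBP 60 h than in WT 60 h by a log2 difference of -0.50 (limma adjusted p = 0.0177), against -0.35 (adjusted p = 0.0965) with median scaling.

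The 8 regions called in 1 library had summit pileups of 12 to 27 reads and lay 4 at ERN1, 2 at ATF6, 1 at DDIT3 and 1 at EIF2AK3. The 16 regions that were lost or gained in any comparison had a median width of 412 bp, with a range of 251 to 1702 bp, against 1058 bp in the other 45 regions of the 7 genes. The median was 601 bp over all merged regions that were lost or gained in any comparison and 643 bp over all merged regions. A merged region can only widen as more libraries call it. Of the 16, 9 lay within 500 bp of another merged region, against 10 of the other 45. Of all lost or gained merged regions, 22.3% had such a neighbour.

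Peak height was compared in the regions that had a peak in all 8 libraries, since calls cannot change there. The log2 summit pileup of these 50575 regions, 24 of them at the 7 genes, was scaled to the same median per library and tested with limma, with Benjamini-Hochberg adjustment over all regions of a contrast. In CBP 60 h against WT 60 h, 1 of the 24 was higher and 4 were lower, against 11.7% higher and 10.3% lower of all regions. With libraries scaled to their background instead, all regions split into 2287 higher and 7823 lower, in place of 5912 and 5209, and the 24 into 1 and 5. The share of the 24 past the threshold was therefore near that of all regions under either scaling.

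The changes at 60 h were mostly at the sensor EIF2AK3. The region chr3:57455217-57456005, inside the gene, had 19 and 15 reads in CBP 60 h, 33 and 29 in WT 60 h, 58 and 47 in CBP 0 h, and 49 and 55 in WT 0 h. After median scaling these were 26.3 and 21.4 in CBP 60 h, 41.8 and 42.8 in WT 60 h, 37.8 and 40.0 in CBP 0 h, and 36.2 and 36.4 in WT 0 h. CBP was thus below WT without overlap at 60 h. At 0 h the median-scaled CBP values were above WT by a log2 difference of only 0.10 (SE 0.19), and as reads CBP and WT overlapped. The region was lower in CBP 60 h by a log2 difference of -0.83 (SE 0.19, limma adjusted p = 0.00158). It passed the threshold in 12 of 12 alternatives, with log2 differences of -0.99 to -0.69. The change with time also differed between the labels, by -0.93 (SE 0.27, limma adjusted p = 0.0417). This passed in 4 of 12 alternatives, with differences of -1.16 to -0.79. That difference includes the 0 h libraries by which the genes were chosen, so it is a description and nothing is read from its p-value.

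At chr3:57408168-57409420, 14.5 kb below the gene and over the long noncoding RNA gene LOC102164763, there were 14 and 17 reads in CBP 60 h, 33 and 22 in WT 60 h, 42 and 23 in CBP 0 h, and 40 and 48 in WT 0 h. The CBP values at 60 h were again the lower ones, without overlap, as they were at 0 h after median scaling, and the log2 difference was -0.76 (SE 0.22, limma adjusted p = 0.0122). The call was lost without CBP 60 h replicate 1 (adjusted p = 0.0996 by limma) and without WT 60 h replicate 1 (0.128). At chr3:57488608-57489709, inside the gene, there were 22 and 13 reads in CBP 60 h, 28 and 28 in WT 60 h, 43 and 33 in CBP 0 h, and 43 and 36 in WT 0 h. CBP was lower at 60 h by -0.69 (SE 0.23, limma adjusted p = 0.0262). This passed the threshold in 8 of 11 alternatives, and without CBP 60 h replicate 2 the difference was -0.33.

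A single region moved the other way. The region chr3:57511775-57512637, 5.53 kb above the upper end of EIF2AK3, had 28 and 23 reads in CBP 60 h, 18 and 13 in WT 60 h, 57 and 40 in CBP 0 h, and 25 and 47 in WT 0 h. After median scaling CBP was above WT without overlap at both times, with 38.8 and 32.9 in CBP 60 h, 22.8 and 19.2 in WT 60 h, 37.1 and 34.1 in CBP 0 h, and 18.5 and 31.1 in WT 0 h. It was higher in CBP 60 h by 0.77 (SE 0.23, limma adjusted p = 0.0130), and the call was lost without CBP 60 h replicate 1 (0.0943) and without WT 60 h replicate 2 (0.0762). The lower end of EIF2AK3 itself differed by 0.06 at 60 h (SE 0.10, limma adjusted p = 0.702), an interval of -0.14 to 0.26. Within EIF2AK3 the heights of CBP 60 h against WT 60 h thus went in both directions at distal regions, while the interval at the gene end excluded a change as large as those.

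In ERN1 the region chr12:14891465-14892916, inside the gene, had 59 and 60 reads in CBP 60 h, 84 and 71 in WT 60 h, 134 and 113 in CBP 0 h, and 116 and 115 in WT 0 h. It was lower in CBP 60 h by -0.34 (SE 0.11, limma adjusted p = 0.0232), without overlap. This passed the threshold in 9 of 12 alternatives, with log2 differences of -0.49 to -0.30. The change with time differed between the labels by -0.52 (SE 0.15, limma adjusted p = 0.0476), which passed in 3 of 12 alternatives, with adjusted p of 0.0125 to 0.277. For this difference of time changes, 0 of the 24 regions were higher and 2 lower, against 1.69% and 1.95% of all regions, or 301 higher and 2664 lower in place of 857 and 987 with scaling to background. These differences include the 0 h libraries by which the genes were chosen, so they are a description and nothing is read from their p-values. In CBP 0 h against WT 0 h the log2 differences of the 24 regions ranged from -0.40 to 0.57, 12 above 0 and 12 below, and are given as a description.

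**Figure D5:**
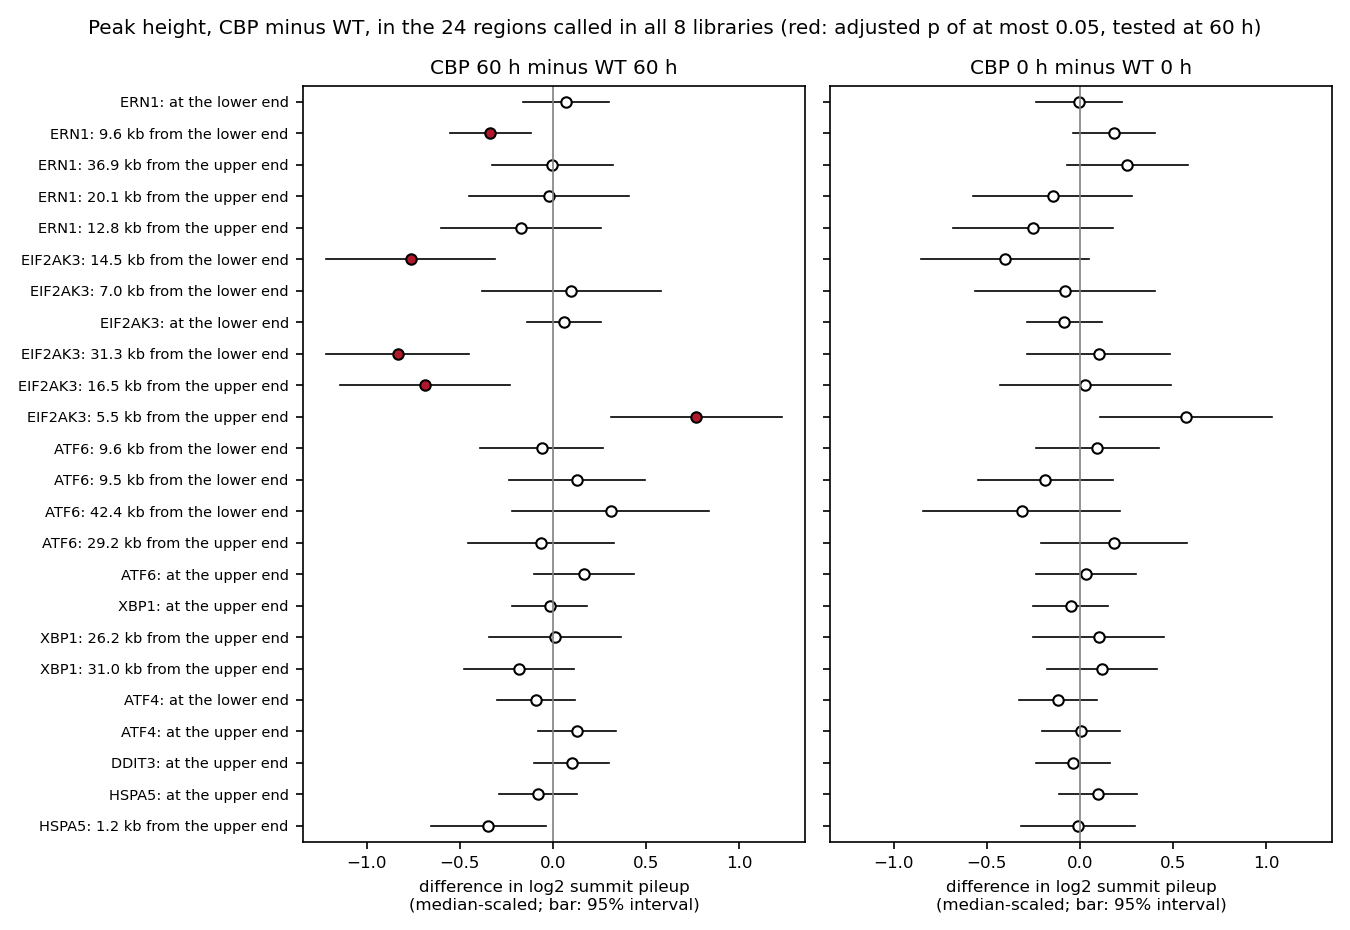
Difference in log2 summit pileup, CBP minus WT, at 60 h (left) and at 0 h (right) for the 24 regions called in all 8 libraries (rows, by gene and distance from the gene end). Points are the limma estimates from 2 libraries a group after median scaling, bars their 95% intervals, and red points had an adjusted p of at most 0.05 at 60 h; 3 red points of EIF2AK3 and 1 of ERN1 lie below 0 and 1 of EIF2AK3 above it.

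Over time 7 of the 8 regions at gene ends were higher at 60 h in both labels with median scaling, and none passed the threshold with scaling to background. The same share over the gene ends of all genes is not given here, so 7 of 8 cannot be called particular to these genes. With median scaling, 8 of the 24 regions were higher and 0 lower in WT 60 h against WT 0 h, where 21.8% of all regions were higher and 7.86% lower. In CBP 60 h against CBP 0 h, 7 were higher and 1 lower, where 30.7% were higher and 12.2% lower. The 7 were the regions at the ends of HSPA5, DDIT3, XBP1, ERN1, EIF2AK3 and, at both ends, ATF4, and the same 7 were higher in WT. With scaling to background, 0 regions were higher and 0 lower in WT, and 0 higher and 7 lower in CBP. The 7 lower regions were all away from gene ends, 3 at EIF2AK3, 2 at ATF6, 1 at ERN1 and 1 at XBP1. At the 8 gene-end regions the log2 change with background scaling was -0.06 to 0.17 in CBP, above 0 in 6 of them and below 0 at HSPA5 and ATF6, and 0.03 to 0.34 in WT, above 0 in 8 of 8. All regions then split into 3309 higher and 5410 lower in WT, in place of 11013 and 3973, and into 2059 and 13861 in CBP, in place of 15533 and 6157. The median change of all regions was 0.10 in WT and 0.16 in CBP with median scaling, and -0.04 and -0.20 with scaling to background.

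Relative to that median, which takes the scaling out, the gene-end changes were positive in both labels. For HSPA5 the log2 change with time was 0.13 above the median of all regions in CBP and 0.37 above it in WT. For DDIT3 it was 0.37 above in CBP and 0.30 above in WT, and for XBP1 0.26 above in CBP and 0.29 above in WT. The region at the end of ATF6 was 0.14 above in CBP and 0.07 above in WT, and it did not pass the threshold in either, with limma adjusted p of 0.0679 in CBP and 0.377 in WT. The departures from the median were not tested and were not set beside those at the gene ends of other genes. None of the gene-end regions of the 7 genes passed the threshold for a difference between CBP 60 h and WT 60 h under either scaling.

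Of 69 other genes of the response, 68 were matched in the annotation and 66 had a region, 427 regions in all. In CBP 60 h against WT 60 h, 20 of these regions were lost (4.68%), most often at SEC61B, a subunit of the protein channel of the endoplasmic reticulum, and at CREB3L1 and CREB3L2, membrane-bound factors of the ATF6 type, with 2 each. In the same contrast 12 were gained (2.81%), 1 each at 12 genes, among them CEBPG and NFE2L2, both transcription factors. In CBP 0 h against WT 0 h, 12 were lost (2.81%), 3 of the 23 regions of CREB3L2 and 2 of the 16 of MAP3K5, a kinase that acts below ERN1. Gained there were 9 (2.11%), 2 of them at CREB3L1 and 1 at DNAJB9, a cochaperone.

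With time, 59 of the 427 were lost in WT (13.8%), 5 each at EDEM1, which marks misfolded glycoproteins for degradation, CREB3L2 and MAP3K5. In CBP 55 were lost (12.9%), 4 each at CEBPB, CREB3L1, MAP3K5 and SIL1. Gained with time were 5 in WT (1.17%), among them 1 at DDIT4 and 1 at DNAJB9, and 2 in CBP (0.468%), at EDEM1 and BCL2. Beside the shares of all merged regions given above, the lost share of these genes was lower in 3 of the 4 comparisons, and the gained share was lower in 3 of the 4.

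The genes whose regions were called most like those of ATF6 were found over 4065 genes with at least 10 regions, by the root mean square difference, over the 8 libraries, in the share of a gene's regions called. They were BSN at 2.84 points, WDR26 at 3.38, WNT7B at 3.54, NFIA at 3.97 and TPCN1 at 4.09. For ATF6 the shares were 52.6% and 52.6% in CBP 60 h, 57.9% and 52.6% in WT 60 h, 68.4% and 68.4% in CBP 0 h, and 78.9% and 89.5% in WT 0 h. For BSN they were 50% and 50% in CBP 60 h, 57.1% and 57.1% in WT 60 h, 71.4% and 71.4% in CBP 0 h, and 78.6% and 92.9% in WT 0 h.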

How the data were processed

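The authors deposited 1 peak list for each library, called with MACS2 2.1.0 on Sscrofa11.1 after trimming with Trimmomatic, per the submitters' processing notes. Which aligner was used, how duplicate reads were treated and whether reads were shifted for the transposase is not given in the sources used here; each could move peak heights and edges. For each peak the authors deposited a fold over local background, the −log10 of a p-value and of a q-value, a score and the offset of the summit. The score was not used in any result.

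Peaks of chromosomes 1 to 18 and X were joined at 1 bp of overlap and linked to RefSeq gene ends of Sscrofa11.1, with no strand. Summit pileup and local background were solved from the deposited fold and −log10 p, which gave whole numbers for 100% of peaks (tolerance 0.01). The most frequent background gave relative depth. No read totals were used, so no share has a counting interval. The genes, the lists and the tests were chosen with earlier results of these data known. Named regions are those lost or gained in any comparison, those held by all 4 libraries of a time or label and none of the other, and those nearest a gene end; regions past a threshold in height were added. Calls used two-sided Fisher's exact tests and heights limma 3.58.1 in R 4.3.3, both with Benjamini-Hochberg adjustment, tested on simulated data; Python 3.11.15, pandas 2.3.3 and scipy 1.17.1 did the rest. Alternatives were an equal number of peaks, −log10 q of at least 5, 50% cover, a 10 kb link, scaling to background, a replicate block, the mean over peaks of a region, and each library left out. Summit sites were added after seeing the data. A planned motif search was not run, since no genome or promoter sequence was used here.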

Additional observations from a re-analysis of the deposited data

Results flagged for a closer look

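For 2 regions the change in peak height from 0 h to 60 h differed between CBP and WT by limma's test of that difference, with adjustment over all shared regions. Of all shared regions, 1.69% were higher and 1.95% lower in that test. It includes the 0 h libraries by which the genes were chosen, so nothing is read from its p-values. Neither region passed in every alternative. At the EIF2AK3 region chr3:57455217-57456005 the change with time was -0.71 in CBP and 0.22 in WT on the log2 scale, a difference of -0.93 (adjusted p = 0.0417). At the ERN1 region chr12:14891465-14892916 it was -0.13 in CBP and 0.39 in WT, a difference of -0.52 (adjusted p = 0.0476). At the EIF2AK3 region both CBP 60 h libraries gave lower median-scaled heights than all the other libraries, and at the ERN1 region they did not. Groups of 2 libraries are too small for a check of single libraries that stand apart.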

How the results depend on the processing

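Counts below are of regions of the 7 genes. For calls, shares of all regions at these settings are given above for summit sites only. At equal peak number, CBP 60 h against WT 60 h gave 4 lost and 1 gained (1 and 0 in the report), CBP 0 h against WT 0 h 3 lost (7), WT 60 h against WT 0 h 2 lost and 3 gained (10 and 1), and CBP 60 h against CBP 0 h 2 lost and 4 gained (6 and 2). Regions called in 4 of 4 libraries at 60 h only were then 2, and at 0 h only 0. With a −log10 q of at least 5, CBP 60 h against WT 60 h gave 2 lost and 1 gained and CBP 60 h against CBP 0 h 1 gained. With 50% of a region covered, CBP 60 h against WT 60 h gave 4 lost and 2 gained, and the gained regions with time were 1 in CBP and 0 in WT, with 0 called at 60 h only. With links within 10 kb, 29 regions remained, of which CBP 0 h against WT 0 h lost 2, WT 60 h against WT 0 h lost 4 and gained 0, and CBP 60 h against CBP 0 h gained 1, while 0 were called at 60 h only and 2 at 0 h only; fewer regions were counted there. With summit sites, CBP 60 h against WT 60 h gave 4 lost and 3 gained, CBP 0 h against WT 0 h 2 gained, and 0 were called at 60 h only. The causes of the other moves were not tested.

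Leaving out each library in turn gave 1 to 5 lost and 0 to 3 gained in CBP 60 h against WT 60 h, 0 to 4 gained in CBP 0 h against WT 0 h, 1 to 3 gained in WT 60 h against WT 0 h, 8 to 11 lost and 2 to 4 gained in CBP 60 h against CBP 0 h, and 1 to 2 called at 60 h only. Fewer libraries then had to lack a call, so these counts cannot fall. The largest moves came without CBP 60 h replicate 2 (5 lost against WT 60 h, 11 lost against CBP 0 h) and without CBP 0 h replicate 2 (4 gained against WT 0 h).

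For heights, scaling to background gave 0 higher in WT 60 h against WT 0 h, and 0 higher and 7 lower in CBP 60 h against CBP 0 h, where the HSPA5 gene-end region turned to -0.0638 on the log2 scale. With the mean over the peaks of a region, 0 differed in their change with time, and over all regions that difference was 292 higher and 349 lower, against 857 and 987; without CBP 0 h replicate 2 it was 56 and 68. With a −log10 q of at least 5, 0 were higher in CBP 60 h against WT 60 h. Leaving out each library in turn gave 0 to 1 higher and 2 to 4 lower in CBP 60 h against WT 60 h, 2 to 9 higher and 0 to 1 lower in WT 60 h against WT 0 h, 1 to 2 lower in CBP 60 h against CBP 0 h, and 0 to 2 lower for the difference of time changes. A group left with 1 library was assumed to vary like the others. Of 274 alternative values of the 23 heights past the threshold, 207 kept direction and call. Replicate numbers did not pair the libraries (correlations of -0.04 to 0.05), and with the replicate block the counts were the same, with 1 higher and 4 lower in CBP 60 h against WT 60 h, 8 and 0 in WT and 7 and 1 in CBP with time, and 2 lower for the difference.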
